A study of Mus musculus with 12 samples.

Results

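The 10 genes described here encode enzymes that build triglyceride and modify fatty acids in the liver: Gpam, Agpat2, Lpin1, Lpin2, Dgat1, Dgat2, Mogat1, Fads1, Fads2 and Elovl5. They were chosen by name, for what they encode, from the 31253 gene symbols listed for each library. Earlier results of these data were known when they were chosen. All 10 were found and all 10 passed the filter on low values, as did 12120 genes in all. The data are RNA sequencing of 12 liver libraries from male C57BL6 mice, 3 in each of 4 groups. Untreated wild type (WT_Ctrl) and untreated knock-in mice (S302A_Ctrl) are compared with mice of the same genotypes that had been injected with diethylnitrosamine (DEN), a carcinogen that hepatocytes activate to a DNA-alkylating form. The dose was 50 µg per g of body weight, given when the mice were 3 weeks old (WT_DEN and S302A_DEN). The S302A knock-in allele turns 1 serine of CUGBP1 into alanine; CUGBP1, the product of Celf1, binds RNA and acts on splicing, translation and decay. A codon change cannot be seen in gene-level values, so these data do not check the genotype labels. The mice were 33 to 41 weeks old when killed. The controls were untreated rather than injected with vehicle, and the age at each library's collection is not given. Nothing in the labels says whether the libraries of a group came from separate animals, so a p-value reflects only the spread among these samples, which may be technical.

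Triglyceride is built on glycerol phosphate. Acyltransferases of the GPAT and AGPAT families add fatty acids to make lysophosphatidic and phosphatidic acid, lipins remove the phosphate to give diacylglycerol, and DGAT enzymes add the last fatty acid. MOGAT enzymes make diacylglycerol from monoacylglycerol by a side route. Fatty acid desaturases and elongases convert the dietary essential fatty acids into long polyunsaturated ones, which the liver places in phospholipids, triglyceride and secreted lipoproteins.

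Levels are given as TPM, a relative measure per transcript length that can be compared between genes but does not keep the sequencing depth, which is therefore unknown. No deposited value lies below 1, so 1 was read as "1 or less". One library, S302A_DEN replicate 3, was unlike the remaining 11. Its median Spearman correlation with them across genes was 0.896, against 0.949 to 0.961 for the others, and 13083 genes exceeded 1 TPM in it, against 10839 to 11653. The summed level of 5 liver tumour and fetal liver markers was 513 TPM in it and at most 27.7 TPM in the others. Of these 5 markers 2, H19 and Igf2, stood at 1 in all 12 libraries. In the same replicate 3, 7 macrophage and 6 stellate cell markers summed to 356 and 231 TPM, against at most 167 and 81.8 TPM. List medians and calls that changed when it was left out are given both ways below. Differences are given both ways only in part, and group means and SDs of TPM include it. The 7 hepatocyte markers were high in every library, at 55974 to 118828 TPM in sum, while 6 of 6 adipocyte markers and 4 of 4 striated muscle markers stood at 1 in all 12.

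Together the 10 genes made up little of the liver RNA but a larger part of it in DEN-treated wild type than in the other groups. Their summed level averaged 1416 ± 149 TPM in WT_DEN and 758 ± 185 in WT_Ctrl, against 817 ± 155 in S302A_DEN and 736 ± 96.5 in S302A_Ctrl (SD, n = 3). As a share of all TPM they held 0.127% to 0.156% in WT_DEN, above every library of the other groups, which ranged from 0.0614% to 0.0954%. WT_DEN had the highest mean of the 4 groups for 8 of the 10 genes. S302A_DEN had it for the other 2, Dgat1 and Mogat1, both through replicate 3. The share of all tested genes with their highest mean in WT_DEN was not counted. Hepatocyte markers moved in the same way: their sum was 106113 to 118828 TPM in WT_DEN, 55974 to 90867 in WT_Ctrl, 65116 to 74370.1 in S302A_Ctrl and 62574 to 80416 in S302A_DEN. The part of this in the results below was not tested. In bulk tissue, fewer cells of a type and less RNA per cell cannot be told apart.

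The levels fell into an upper and a lower tier. In untreated wild type livers Elovl5 averaged 168 ± 83.0 TPM, Dgat2 143 ± 20.4, Fads1 128 ± 43.5, Agpat2 121 ± 22.7 and Fads2 102 ± 19.3 (SD, n = 3). These neighbours did not differ beyond their spread. Lpin2 followed at 36.9 ± 6.41 TPM, apart from Fads2 in every library. Below it came Gpam at 21.0 ± 6.37, Lpin1 at 18.7 ± 4.35 and Dgat1 at 13.3 ± 0.864 TPM, of which Gpam and Lpin1 lay within each other's spread. Mogat1 was lowest at 5.80 ± 4.02 TPM.

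**Figure D1:**
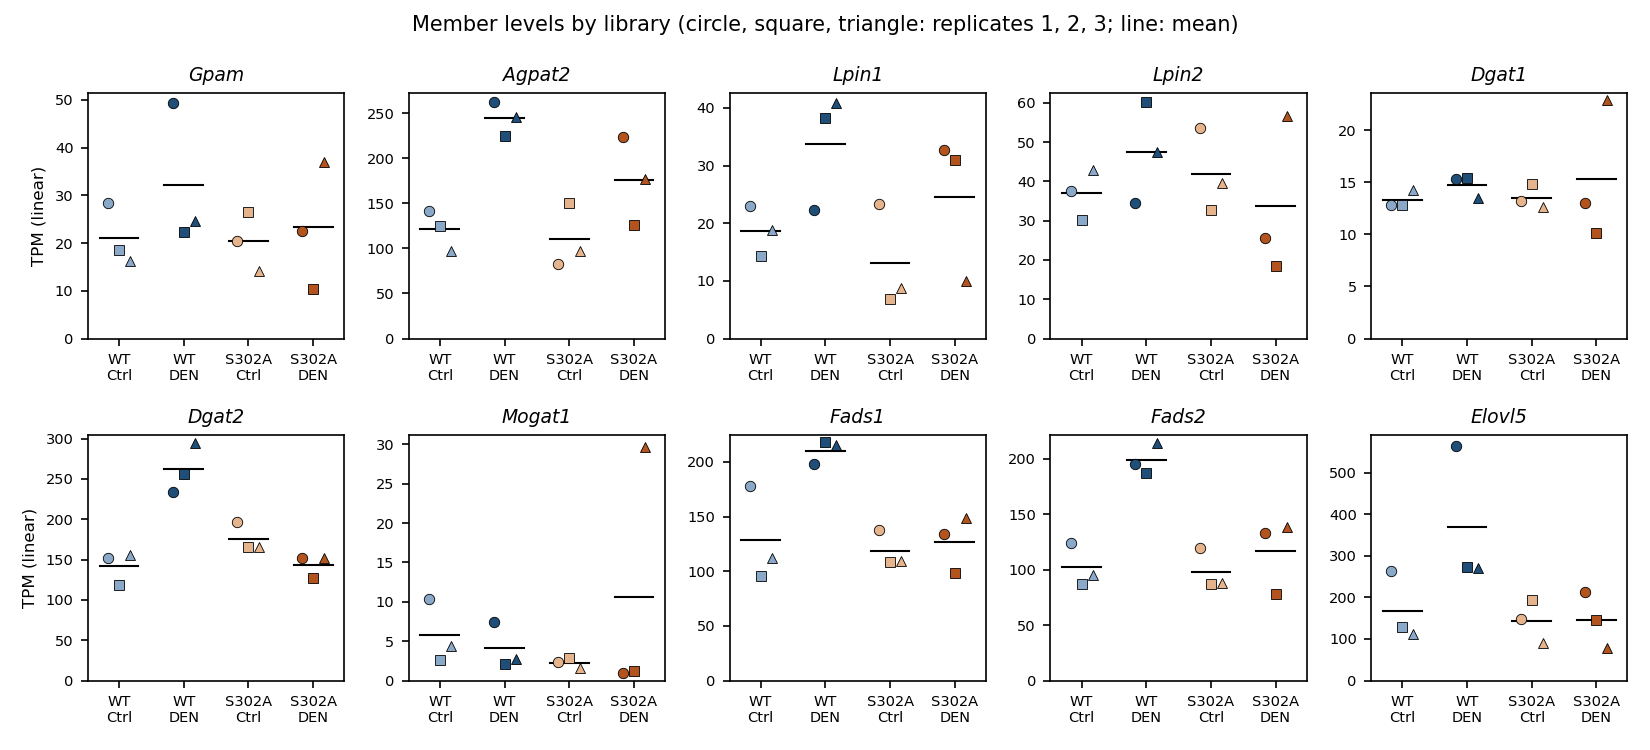
TPM (linear axis, from 0) of each of the 10 genes in the 12 libraries, grouped by genotype and treatment; points are replicates 1 (circle), 2 (square) and 3 (triangle), and lines are means of 3. The 3 WT_DEN libraries of Dgat2 (234 to 295 TPM) lie above every other library of that gene, and the triangle of S302A_DEN lies far above all other points for Mogat1 (29.7 TPM).

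The early steps of the pathway are those of Gpam, the mitochondrial glycerol-phosphate acyltransferase, and Agpat2, an acyltransferase of the endoplasmic reticulum whose loss causes lipodystrophy. Gpam (GRCm38 chr19:55067268-55127238, minus strand) was 28.3, 18.5 and 16.3 TPM in WT_Ctrl and 49.4, 22.3 and 24.6 TPM in WT_DEN. It was 20.5, 26.6 and 14.2 TPM in S302A_Ctrl and 22.6, 10.4 and 37.0 TPM in S302A_DEN. The groups overlapped in every comparison, and WT_DEN replicate 1 was the highest of the 12 libraries.

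Agpat2 (chr2:26593057-26604417, minus strand) was 142, 125 and 97.1 TPM in WT_Ctrl and 263, 225 and 246 TPM in WT_DEN. It was 82.5, 150.5 and 97.2 TPM in S302A_Ctrl and 224, 126 and 177 TPM in S302A_DEN. All 3 WT_DEN libraries lay above all 3 untreated wild type libraries, while in S302A the DEN-treated libraries were higher on average but overlapped the untreated ones through S302A_DEN replicate 2 and S302A_Ctrl replicate 2. The highest S302A_DEN library lay just under the lowest WT_DEN library.

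The lipins dephosphorylate phosphatidic acid, and lipin 1, encoded by Lpin1, also acts as a nuclear coactivator in the fasting response. Lpin1 (chr12:16535669-16610966, minus strand) was 23.0, 14.3 and 18.8 TPM in WT_Ctrl and 22.3, 38.3 and 40.8 TPM in WT_DEN. It was 23.4, 6.93 and 8.71 TPM in S302A_Ctrl and 32.7, 31.0 and 9.92 TPM in S302A_DEN. Both DEN groups overlapped their untreated groups, in wild type through WT_DEN replicate 1 and in S302A through S302A_DEN replicate 3, the library that stood apart. Lpin2, on the plus strand of chromosome 17 (71182560 to 71249817), was 37.5, 30.3 and 43.0 TPM in WT_Ctrl, 34.6, 60.3 and 47.4 in WT_DEN, 53.6, 32.6 and 39.7 in S302A_Ctrl and 25.7, 18.5 and 56.7 in S302A_DEN. S302A_DEN replicates 1 and 2 were the lowest of the 12 libraries for Lpin2, and replicate 3 of the same group was the second highest.

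The DGAT enzymes catalyse the final and committed step. Dgat1 (chr15:76502015-76511953, minus strand), the broadly specific enzyme, stayed in a narrow range: 11 libraries lay between 10.1 and 15.4 TPM, and S302A_DEN replicate 3 had 22.9 TPM. Dgat2 (chr7:99153658-99182719, minus strand), which is tied to newly made fatty acids in hepatocytes, was 152, 119 and 156 TPM in WT_Ctrl and 234, 256 and 295 TPM in WT_DEN. It was 197, 165 and 165 TPM in S302A_Ctrl and 152, 127 and 152 TPM in S302A_DEN. All 3 DEN-treated libraries were thus above all 3 untreated ones in wild type and below all 3 in S302A, with S302A_DEN replicate 3 just above replicate 1. After median-of-ratios scaling the S302A_DEN values were 155, 156 and 90.1 (scaled TPM), so that replicate 3 was then the lowest of the group. Of the 12120 genes tested, 39 (0.322%) had this arrangement, with groups that did not overlap in either genotype. Mogat1 (chr1:78510991-78538173, plus strand), the monoacylglycerol acyltransferase that is induced in fatty livers, ranged from 1.00 to 10.3 TPM in 11 libraries. It was 1.00 and 1.23 TPM in S302A_DEN replicates 1 and 2 and 29.7 TPM in replicate 3, so that its group mean of 10.6 ± 16.5 TPM describes 1 library.

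Fads1, Fads2 and Elovl5 act in turn on polyunsaturated fatty acids: Fads2 encodes the delta-6 desaturase, Elovl5 the elongase and Fads1 the delta-5 desaturase. Fads1 (chr19:10182888-10196877, plus strand) and Fads2 (chr19:10062765-10101746, minus strand) are neighbours whose gene bodies lie 81141 bp apart. Fads1 was 178, 95.3 and 112 TPM in WT_Ctrl and 198, 218 and 215 TPM in WT_DEN. It was 138, 108 and 109 TPM in S302A_Ctrl and 134, 98.1 and 149 TPM in S302A_DEN. The WT_DEN libraries lay above all others, with WT_Ctrl replicate 1 the nearest.

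Fads2 was 124, 86.9 and 94.9 TPM in WT_Ctrl and 195, 187 and 214 TPM in WT_DEN. It was 119.7, 86.7 and 87.6 TPM in S302A_Ctrl and 133, 78.3 and 138 TPM in S302A_DEN. Again the 3 WT_DEN libraries stood above the other 9, and the S302A groups overlapped. Elovl5 (chr9:77917364-77984519, plus strand) was 263, 129 and 112 TPM in WT_Ctrl and 565, 273 and 269.6 in WT_DEN, against 148, 193 and 90.1 in S302A_Ctrl and 213, 146 and 78.9 in S302A_DEN. WT_DEN lay above all other libraries here too, but by a small margin over WT_Ctrl replicate 1. Replicate 1 was the highest of the 3 for Gpam, Agpat2, Mogat1 and Elovl5 in both wild type groups.

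Promoter sequence is shown for Agpat2, the gene that passed the test over both genotypes, and for Elovl5, which had the largest log2 differences among the genes whose groups did not overlap; both were picked after their values were seen. Each line is the 250 bases before the RefSeq start on GRCm38.p6, 5′ to 3′ on the gene's strand, at chr2:26604418-26604667 (minus) for Agpat2 and chr9:77917115-77917364 (plus) for Elovl5. Capitals mark 3 motifs searched on both strands: the E-box CACGTG, bound by factors such as USF and SREBP-1, the CCAAT box (ATTGG on the other strand), bound by NF-Y, and the GC box GGGCGG, bound by Sp1.
Agpat2: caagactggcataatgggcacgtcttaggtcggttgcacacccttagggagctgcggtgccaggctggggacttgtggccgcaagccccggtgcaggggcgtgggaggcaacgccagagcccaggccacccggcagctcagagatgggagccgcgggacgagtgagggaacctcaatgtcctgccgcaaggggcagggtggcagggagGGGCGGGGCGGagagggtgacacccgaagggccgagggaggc
Elovl5: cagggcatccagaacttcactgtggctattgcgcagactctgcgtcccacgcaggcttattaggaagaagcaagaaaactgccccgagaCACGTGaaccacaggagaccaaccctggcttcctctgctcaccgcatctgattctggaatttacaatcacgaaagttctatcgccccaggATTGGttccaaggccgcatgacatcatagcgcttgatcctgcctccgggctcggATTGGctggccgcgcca
In Agpat2 a pair of overlapping GC boxes lies 42 to 37 and 37 to 32 bases before the start. In Elovl5 an E-box lies 161 to 156 bases before the start, and CCAAT boxes on the minus strand lie at 71 to 67 and 17 to 13 bases. RefSeq windows were at hand for 7 of the 10 genes, 10 windows in all, of which Lpin2 had 3 and Gpam 2. An E-box was found in 2 of these 10 (Lpin2 and Elovl5), against 6.02% of 32851 promoters of the same length, a CCAAT box in 3, against 33.8%, and a GC box in 5, against 32.7%. The core of the sterol regulatory element, TCACNCCAC, was found in 0 of the 10 windows and in 1.05% of all promoters. Some windows lay partly in GENCODE exons, with 243 of 250 bases for Fads2, 131 for 1 Gpam window and 69 for Mogat1. That Gpam window and the Fads2 window are among those counted with a GC box. A match describes the letters of the window and shows no binding.

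The first comparison asked what DEN treatment in early life went with in the adult wild type liver. Of the 10 genes, 9 were higher in WT_DEN than in WT_Ctrl, as were 8570 of the 12120 tested genes. The median log2 difference of the 10 was 0.78, against 0.13 over all tested genes. The 5 whose groups did not overlap were Agpat2, Dgat2, Fads1, Fads2 and Elovl5, all higher; 21.7% of all tested genes were higher without overlap. None of the 10 passed the adjusted threshold of 0.05 in limma, which 0.132% of all genes passed; 5 of the 10 had an unadjusted p below 0.05 and a higher mean, as did 6.89% of all genes. Dgat2 differed most relative to its spread (log2 difference 0.87 ± 0.18 SE, adjusted p = 0.128 by limma). The differences of Fads2 (0.97 ± 0.24, adjusted p = 0.211 by limma) and Agpat2 (1.02 ± 0.26, adjusted p = 0.229 by limma) were of similar size. Elovl5 had the largest difference and the widest error of these 5 (1.15 ± 0.44, adjusted p = 0.477 by limma), and Fads1 the smallest (0.76 ± 0.24, adjusted p = 0.350 by limma). Of the remaining genes, Lpin1 was 0.80 ± 0.48 and Gpam 0.54 ± 0.43 higher, Lpin2 0.33 and Dgat1 0.14 higher, and Mogat1 differed by -0.41 on this scale, each with overlapping groups. The sign for Dgat1 changed under median-of-ratios scaling (-0.03) and quantile normalization (-0.04), and that for Mogat1 without WT_Ctrl replicate 1 (0.04).

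The shared estimate of spread in this fit includes S302A_DEN replicate 3. Without that library, Dgat2 (adjusted p = 0.0188 by limma) and Fads2 (adjusted p = 0.0436 by limma) passed the threshold with unchanged differences, as did 2.17% of all genes. Both also passed with that library left out and median-of-ratios scaling together (0.69 and 0.79), as did 1.77% of all genes. Over all alternatives the adjusted p ranged from 0.0188 to 0.566 for Dgat2 and from 0.0315 to 0.656 for Fads2. Scaling the libraries by median-of-ratios factors moved the median of all genes from 0.13 to -0.02 and that of the 10 genes to 0.60. The same 5 genes stayed free of overlap after this scaling, as did 12.3% of all genes.

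In S302A mice the 10 genes lay on both sides of 0 after DEN. Of the 10 genes, 7 were higher and 3 lower in S302A_DEN than in S302A_Ctrl. Of the 12120 tested genes, 9611 were higher and 2488 lower. The median log2 difference of the 10 was 0.09, against 0.27 over all tested genes. None passed the adjusted threshold in limma (0.619% of all genes did), and 1, Agpat2, had an unadjusted p below 0.05 and a higher mean, as did 13.8% of all genes. Agpat2 (0.68 ± 0.26, adjusted p = 0.251 by limma) and Lpin1 (0.88 ± 0.48, adjusted p = 0.363 by limma) had the largest differences of those that were higher. Dgat2 was the single gene without overlap and was lower (-0.28 ± 0.18, adjusted p = 0.411 by limma); 2.68% of all genes were lower without overlap. Fads1 (0.09), Fads2 (0.22), Elovl5 (-0.02), Gpam (0.06) and Dgat1 (0.09) were close to 0 on the log2 scale. Under median-of-ratios scaling the sign changed for Fads2 (-0.10), Fads1 (-0.22), Gpam (-0.25) and Dgat1 (-0.21), and it changed for the same 4 under quantile normalization.

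Much of this comparison depended on S302A_DEN replicate 3, which lay above both other replicates of its group in 7 of the 10 genes (87.0% of all tested genes did) and below both in Lpin1 and Elovl5. Without it, Gpam (-0.34), Dgat1 (-0.22), Mogat1 (-0.61), Fads1 (-0.03) and Elovl5 (0.36) changed sign, the median of the 10 genes was -0.13, and 0 of the 10 were called by limma against 2.43% of all genes. Lpin1 then lay above all S302A_Ctrl libraries (log2 difference 1.41, adjusted p = 0.111 by limma), an arrangement held by 17.2% of all genes. Lpin2 (-0.88, adjusted p = 0.116 by limma), Dgat2 and Mogat1 lay below all of them, an arrangement held by 15.7% of all genes. Over all alternatives the adjusted p ranged from 0.0787 to 0.968 for Lpin1 and from 0.0893 to 1.00 for Lpin2. After median-of-ratios scaling of all 12 libraries, the median of the 10 genes was -0.21, against 0.01 over all genes, and Lpin2, Dgat1 and Dgat2 were lower without overlap, as were 12% of all genes.

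**Figure D2:**
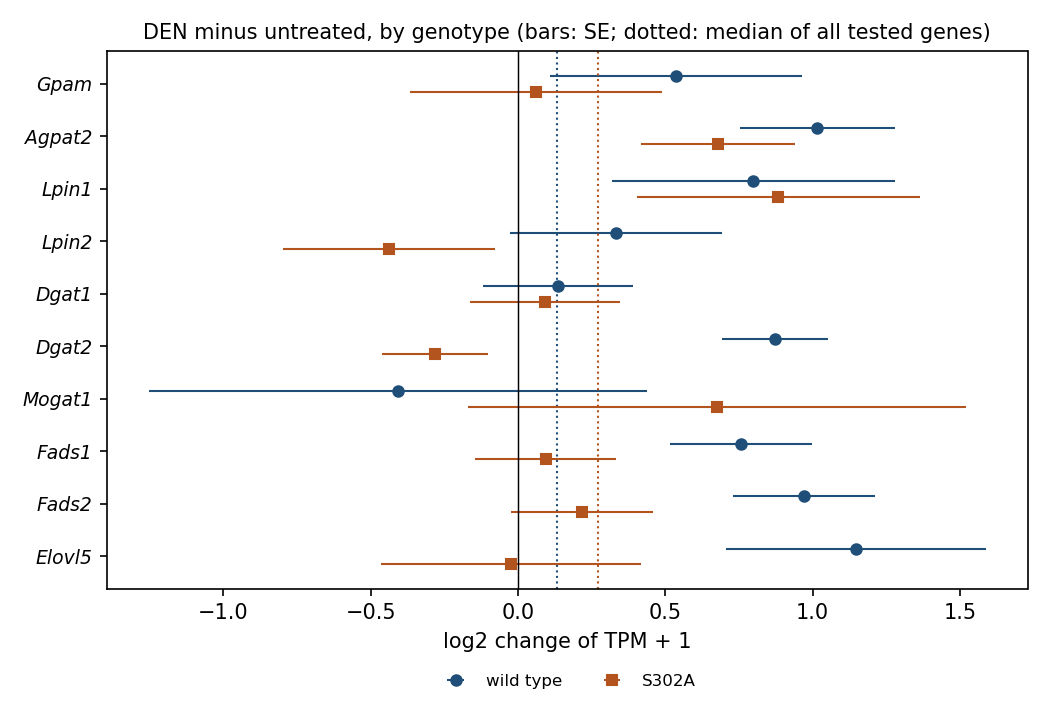
Log2 difference of TPM + 1 between DEN-treated and untreated livers for each gene, in wild type (circles) and S302A (squares), with SE from the fit over 12 libraries; dotted lines are the medians of all 12120 tested genes (0.13 and 0.27). The wild type points of Gpam, Agpat2, Lpin2, Dgat2, Fads1, Fads2 and Elovl5 lie to the right of their S302A points by more than either SE. That of Mogat1 lies to the left by more than either SE, and those of Lpin1 and Dgat1 lie together. No gene passed the test of this gap, the interaction.

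Whether the DEN difference itself differed between genotypes was tested as an interaction. None of the 10 passed the adjusted threshold in limma (0.0413% of all genes did), and 2, Dgat2 and Fads2, had an unadjusted p below 0.05 with a negative value, as did 2.83% of all genes. For Dgat2 the DEN difference in S302A minus that in wild type was -1.16 ± 0.25 on the log2 scale (unadjusted p = 0.000615, adjusted p = 0.273, both by limma). Without S302A_DEN replicate 3 the value was -1.20 and passed the threshold (adjusted p = 0.0411 by limma), as did 0.631% of all genes. With median-of-ratios scaling as well as that library left out, the value was -1.03 and did not pass (adjusted p = 0.0702 by limma); over all alternatives the adjusted p ranged from 0.0411 to 0.698 and the value from -1.29 to -1.03. The interaction was -0.75 ± 0.34 for Fads2 (adjusted p = 0.946 by limma), -1.17 ± 0.62 for Elovl5 and -0.66 ± 0.34 for Fads1 (both adjusted p = 0.975 by limma). It was 0.08 ± 0.68 for Lpin1 and -0.04 ± 0.36 for Dgat1, errors that leave room for differences in either direction. With S302A_DEN replicate 3 left out these were 0.61 for Lpin1 and -0.36 for Dgat1, and Lpin2 went from -0.77 to -1.22 (adjusted p = 0.159 by limma). In that fit the interaction was -0.79 for Elovl5, -0.79 for Fads1 and -0.90 for Fads2. The interaction is made from the libraries of both DEN comparisons and is not independent of them.

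Averaged over both genotypes, DEN went with a rise of Agpat2, the one gene of the 10 to pass the threshold (0.85 ± 0.19 on the log2 scale, adjusted p = 0.0484 by limma); 1.34% of all genes passed. It was higher in all 3 WT_DEN libraries than in any untreated wild type library and in 2 of 3 S302A_DEN libraries than in any untreated S302A library. The call was close to the threshold and ended under 13 of 21 alternatives, among them median-of-ratios scaling (0.60, adjusted p = 0.0950 by limma), with adjusted p over all alternatives from 0.0190 to 0.241. Leaving out any 1 of 9 libraries ended it (adjusted p = 0.0683 to 0.140 by limma): each of the 6 wild type libraries, S302A_Ctrl replicates 1 and 3 and S302A_DEN replicate 1. Without S302A_DEN replicate 3 both Agpat2 (0.84, adjusted p = 0.0321 by limma) and Lpin1 (1.11, adjusted p = 0.0469 by limma) passed, as did 5.55% of all genes. With median-of-ratios scaling as well, Agpat2 (0.74) and Fads2 (0.43) passed, as did 9.85% of all genes, and Lpin1 did not (1.02, adjusted p = 0.0537 by limma); for Lpin1 the adjusted p ranged from 0.0469 to 0.485 over all alternatives. The next lowest adjusted p was that of Fads2 (0.59 ± 0.17, adjusted p = 0.104 by limma), followed by Fads1 (0.43, adjusted p = 0.205 by limma), Lpin1 (0.84, adjusted p = 0.207 by limma) and Dgat2 (0.30, adjusted p = 0.230 by limma).

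In untreated livers no difference between the genotypes passed the test. None of the 10 genes passed the threshold in limma for S302A_Ctrl against WT_Ctrl (0.0330% of all genes did), none had an unadjusted p below 0.05 (0.561% of all genes did with a higher mean and 0.916% with a lower one), and the median was -0.07, equal to that of all genes. Dgat2 was higher in all 3 S302A_Ctrl libraries than in any WT_Ctrl library (0.30 ± 0.18, adjusted p = 1.00 by limma), as were 1.69% of all genes. Lpin1 (-0.65 ± 0.48) and Mogat1 (-0.91 ± 0.84) had the largest differences and the widest errors.

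After DEN most of the 10 genes were lower in the knock-in than in wild type. Of the 10, 9 were lower in S302A_DEN than in WT_DEN, as were 4813 of the 12120 tested genes. The median log2 difference of the 10 was -0.59, against 0.07 over all tested genes. This comparison shares its WT_DEN libraries with the wild type comparison above and is not independent of it. Agpat2, Dgat2, Fads1, Fads2 and Elovl5 were lower without overlap, as were 6.19% of all genes. None passed the adjusted threshold in limma (0.380% of all genes did), and 4 had an unadjusted p below 0.05, against 4.90% of all genes with lower means. Dgat2 came nearest (-0.85 ± 0.18, adjusted p = 0.0705 by limma), followed by Fads2 (-0.81 ± 0.24, adjusted p = 0.242 by limma), Fads1 (-0.74 ± 0.24, adjusted p = 0.311 by limma) and Elovl5 (-1.36 ± 0.44, adjusted p = 0.313 by limma). Agpat2 differed by -0.51 ± 0.26 and Lpin2 by -0.61 ± 0.36, while Dgat1 (-0.02 ± 0.25) stood near 0, with a sign that depended on which library was left out. Mogat1, at 0.17 ± 0.84, was the 1 gene that was higher, and was -1.12 without S302A_DEN replicate 3. Without that library Elovl5 was -0.97, while Gpam went from -0.52 to -0.92 and Lpin1 from -0.57 to -0.04.

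Without S302A_DEN replicate 3, 3 of the 10 genes passed the threshold, all lower in S302A_DEN: Dgat2 (-0.90, adjusted p = 0.0154 by limma), Fads2 (-0.95, adjusted p = 0.0394 by limma) and Lpin2 (-1.05, adjusted p = 0.0445 by limma). In that fit 5.30% of all genes were called lower. With median-of-ratios scaling as well, 0 of the 10 passed, against 425 of 11883 genes (3.58%): Dgat2 was -0.63 (adjusted p = 0.0605 by limma), Fads2 -0.69 (adjusted p = 0.0585 by limma) and Lpin2 -0.80 (adjusted p = 0.167 by limma). Without that library and without scaling, 8 of the 10 genes lay below all WT_DEN libraries, as did 38.2% of all genes. The median of the 10 was then -0.91, against -0.20 over all genes. With the scaling as well, these medians were -0.65 and 0.02. Over all alternatives the adjusted p ranged from 0.0154 to 0.452 for Dgat2, from 0.0394 to 0.860 for Fads2 and from 0.0445 to 1.00 for Lpin2. After median-of-ratios scaling of all 12 libraries Dgat2, Fads1, Fads2 and Elovl5 stayed free of overlap (11% of all genes were lower without overlap), Agpat2 did not, and Fads2 passed the threshold (-0.85, adjusted p = 0.0467 by limma), as did 1.73% of all genes. Averaged over treatment, S302A went with no called gene among the 10, and 0.0165% of all genes passed in limma; 4 of the 10 had an unadjusted p below 0.05, all lower in S302A, as did 3.19% of all genes.

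**Figure D3:**
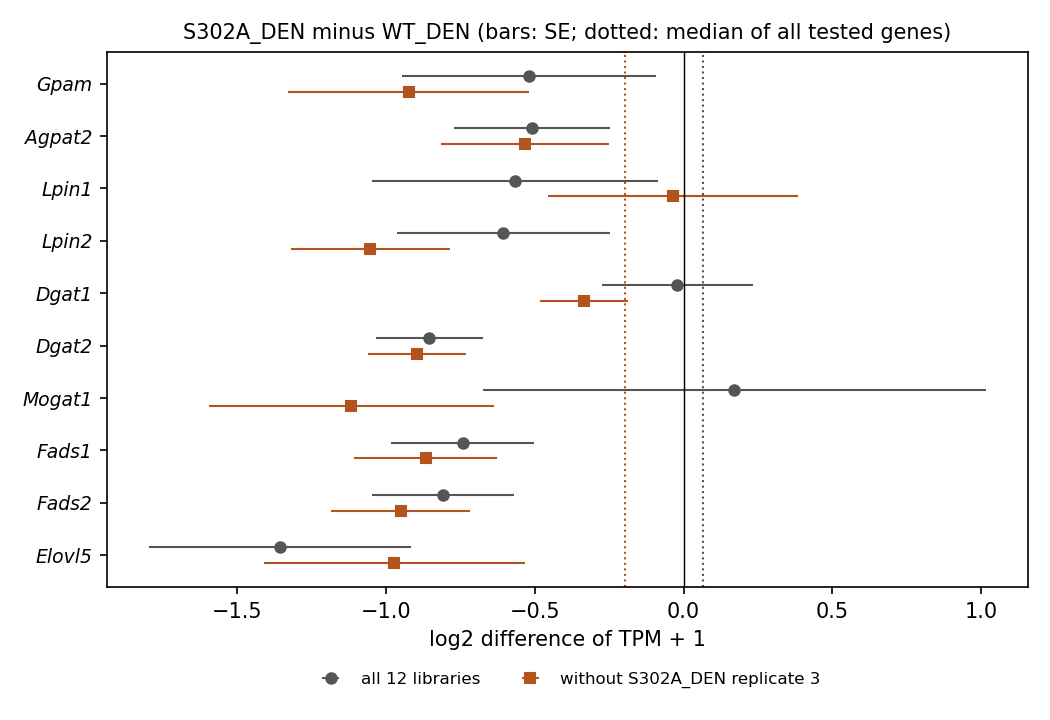
Log2 difference of TPM + 1 between S302A_DEN and WT_DEN for each gene, with SE, from all 12 libraries (circles) and without S302A_DEN replicate 3 (squares); dotted lines are the medians of all tested genes (0.07 and -0.20). Dgat2, Fads1, Fads2 and Agpat2 move by less than their SE between the fits, while Mogat1, Lpin1, Lpin2 and Dgat1 move by more than the smaller SE.

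Ratios of paired enzymes within a library do not depend on its scaling. The ratio of Dgat2 to Dgat1 TPM was 11.9, 9.32 and 10.9 in WT_Ctrl and 15.3, 16.6 and 21.8 in WT_DEN, without overlap. It was 14.9, 11.2 and 13.0 in S302A_Ctrl and 11.7, 12.7 and 6.66 in S302A_DEN, with overlap and the lowest value in replicate 3. For the lipins, Lpin1 over Lpin2 was 0.435, 0.213 and 0.220 in S302A_Ctrl and 1.27, 1.68 and 0.175 in S302A_DEN. Lpin1 exceeded Lpin2 in S302A_DEN replicates 1 and 2 alone among the 12 libraries. In wild type that ratio was 0.614, 0.472 and 0.437 without DEN and 0.644, 0.635 and 0.861 after it, without overlap. Agpat2 over Gpam lay between 5.03 and 6.77 in WT_Ctrl, 5.32 and 10.1 in WT_DEN, 4.03 and 6.86 in S302A_Ctrl and 4.77 and 12.2 in S302A_DEN, overlapping in both genotypes through 1 library each. The neighbours Fads1 and Fads2 kept an even ratio: Fads2 over Fads1 lay between 0.696 and 0.992 in all 12 libraries.

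**Figure D4:**
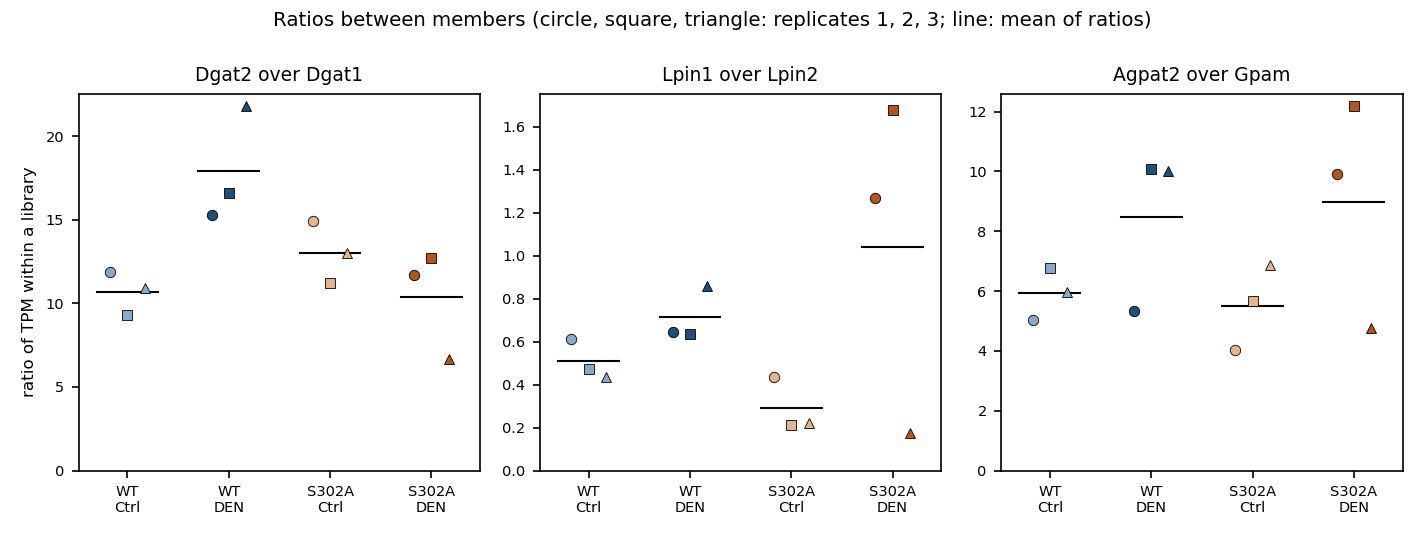
Ratio of TPM of Dgat2 over Dgat1, Lpin1 over Lpin2 and Agpat2 over Gpam in each library (linear axes from 0); points are replicates 1 (circle), 2 (square) and 3 (triangle), and lines are means of 3 ratios. Lpin1 over Lpin2 is above 1 in the S302A_DEN circle and square and 0.175 in the triangle.

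The other genes of these pathways were read from 5 lists. Of the 13 other genes of glycerolipid synthesis, 10 passed the filter. In limma 0 were called in any comparison with all 12 libraries and no alternative setting. Their median log2 difference with DEN was 0.28 in wild type and 0.63 in S302A, against 0.13 and 0.27 over all tested genes. Without S302A_DEN replicate 3 the S302A median was 0.12. Acsl4, an acyl-CoA synthetase that prefers arachidonate, was 9.34, 9.33 and 6.78 TPM in S302A_Ctrl and 12.2, 23.0 and 48.2 in S302A_DEN (1.41 ± 0.36, adjusted p = 0.0995 by limma, 0.0227 to 0.472 over all alternatives), and 10.8 ± 0.781 against 11.7 ± 0.975 TPM in wild type. All 3 DEN-treated S302A libraries were higher than the untreated ones, the highest being replicate 3. Without that library the difference was 0.92 (adjusted p = 0.0694 by limma). It passed the test under 3 of 22 alternatives: without S302A_DEN replicate 1 (1.87), with median-of-ratios scaling (1.11) and with quantile normalization (1.11). Acsl3, another acyl-CoA synthetase, was 4.68 ± 0.840 TPM in WT_Ctrl and 6.94 ± 0.406 in WT_DEN, against 4.22 ± 1.35 in S302A_Ctrl and 7.73, 5.70 and 19.3 in S302A_DEN; its S302A difference was 1.05, and 0.58 without S302A_DEN replicate 3. Agpat3, an acyltransferase close to Agpat2 in function, was 49.2 ± 1.32 TPM in WT_Ctrl, 72.2 ± 4.36 in WT_DEN and 47.0 ± 2.58 in S302A_Ctrl (SD, n = 3), and 52.2, 40.6 and 112 in S302A_DEN. The wild type groups did not overlap, and in S302A replicate 3 alone lay far above the untreated libraries. Without that library Agpat3 passed the test as higher with DEN in wild type (0.54, adjusted p = 0.0436 by limma) and as lower in S302A_DEN than in WT_DEN (-0.64, adjusted p = 0.0219 by limma), and its DEN difference in S302A was -0.03. Gpat3, a glycerol-phosphate acyltransferase of the endoplasmic reticulum named after its values were seen, then also passed, as lower in S302A_DEN than in WT_DEN (-1.13, adjusted p = 0.00911 by limma) and in the average S302A difference (-0.94, adjusted p = 0.0140 by limma). With all 12 libraries these were -0.35 and -0.54 and did not pass. In the fit without S302A_DEN replicate 3, 5.30% of all genes were called lower in S302A_DEN than in WT_DEN. With median-of-ratios scaling and that library left out, 0 genes of the list passed in any of these comparisons.

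Of 15 other desaturation and elongation genes, 14 passed the filter and 0 were called in limma with all 12 libraries and no alternative setting. Their medians were 0.36 for DEN in wild type and 0.39 in S302A (0.04 without S302A_DEN replicate 3). Elovl6, which elongates saturated fatty acids, was 21.2, 7.64 and 5.50 TPM in WT_Ctrl and 43.8, 26.8 and 28.7 in WT_DEN. It ranged from 5.61 to 11.8 TPM in S302A_Ctrl and from 10.4 to 20.2 in S302A_DEN. The wild type groups did not overlap, the S302A groups did, and the average DEN difference was 1.28 ± 0.31 (adjusted p = 0.0612 by limma, 0.0326 to 0.320 over all alternatives). It passed under 6 of 21 alternatives. Among them were median-of-ratios scaling (1.05) and quantile normalization (1.02), under which 5.84% and 5.93% of all genes passed. Others were leaving out WT_Ctrl replicate 1 (1.54) or S302A_DEN replicate 2 (1.39). Elovl1, which elongates very long chains, was 19.3 ± 3.73 TPM in S302A_Ctrl and 44.7 ± 17.7 in S302A_DEN (1.12 ± 0.25, adjusted p = 0.0671 by limma, 0.0123 to 0.388 over all alternatives), against 23.2 ± 2.63 and 28.1 ± 3.12 in wild type. It passed under 6 of 22 alternatives. Among them were median-of-ratios scaling (0.81) and quantile normalization (0.83), under which 5.37% and 5.61% of all genes passed. Others were leaving out S302A_DEN replicate 2 (1.27) or 3 (0.82). Without replicate 3 its average DEN difference passed too (0.54, adjusted p = 0.0245 by limma). Cyb5r3, the reductase that passes electrons to desaturases through cytochrome b5, was 156 ± 49.1 TPM in WT_Ctrl and 264 ± 23.0 in WT_DEN, against 143 ± 33.0 in S302A_Ctrl and 205 ± 76.6 in S302A_DEN.

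Phospholipid synthesis shares diacylglycerol with triglyceride synthesis. Of its 15 listed genes, 14 passed the filter and 1 was called in limma, Chka, the choline kinase that opens the route to phosphatidylcholine. It was 20.3, 24.0 and 7.59 TPM in WT_Ctrl, 72.7, 48.3 and 46.5 in WT_DEN, 10.4, 13.4 and 8.56 in S302A_Ctrl and 65.2, 28.1 and 79.4 in S302A_DEN. DEN-treated libraries lay above all untreated ones in both genotypes. Chka rose with DEN in S302A (2.21 ± 0.43, adjusted p = 0.0432 by limma) and on average (1.98 ± 0.30, adjusted p = 0.0160 by limma), and its wild type difference was 1.75 ± 0.43 (adjusted p = 0.211 by limma). The average call ended with no filter alone (adjusted p over all alternatives 0.00524 to 0.140). The S302A call ended under 12 of 22 alternatives (adjusted p 0.0148 to 0.315 by limma), among them leaving out WT_Ctrl replicate 1, any WT_DEN or S302A_Ctrl library, or S302A_DEN replicate 1 or 3 (adjusted p = 0.0508 to 0.194 by limma). Median differences of the list with DEN were 0.20 in wild type and 0.15 in S302A, the latter -0.17 without S302A_DEN replicate 3. In the fit without that library, 5.30% of all genes were called lower in S302A_DEN than in WT_DEN, and the median of all genes was -0.20. Among those called lower were 4 more genes of the list, named after their values were seen. They were Chpt1 (-1.10, adjusted p = 0.00521 by limma) and Cept1 (-0.86, adjusted p = 0.0430 by limma), which join the head group to diacylglycerol, Lpcat3 (-0.82, adjusted p = 0.0298 by limma), which adds polyunsaturated acyl chains to lysophospholipids, and Pcyt1a (-0.69, adjusted p = 0.0387 by limma), of the choline branch. Chpt1 was 82.0, 97.4 and 67.2 TPM in S302A_Ctrl and 50.3, 42.2 and 105 in S302A_DEN, against 98.3 to 101 in WT_DEN. It also passed without replicate 3 as lower with DEN in S302A (-0.81, adjusted p = 0.0267 by limma) and in the average S302A difference (-0.60, adjusted p = 0.0357 by limma). With all 12 libraries the differences after DEN were -0.71 for Chpt1, -0.37 for Cept1, -0.53 for Lpcat3 and -0.27 for Pcyt1a, none called. With median-of-ratios scaling and that library left out, Chpt1, Cept1 and Lpcat3 passed after DEN (-0.84, -0.61 and -0.56), as did 3.58% of all genes. Pcyt1a did not pass in that fit (-0.44, adjusted p = 0.0517 by limma). Pemt, which makes phosphatidylcholine by methylation, ranged from 229 to 376 TPM in WT_Ctrl and averaged 476 ± 1.46 in WT_DEN, and 319 ± 10.9 and 366 ± 93.9 in S302A. Pcyt2, of the ethanolamine branch, was 255 ± 84.1 and 345 ± 29.6 in wild type and 250.1 ± 21.1 and 268 ± 59.3 in S302A.

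Very low density lipoprotein (VLDL) carries triglyceride out of the liver. Of 8 genes listed with its assembly, 8 passed the filter. Their part in assembly was not tested here. The list had median DEN differences of 0.47 in wild type and 0.25 in S302A (0.08 without S302A_DEN replicate 3). Among the 8 genes 1 was called, in the average DEN difference: Pdia4, an endoplasmic reticulum disulfide isomerase, rose by 0.81 ± 0.17 (adjusted p = 0.0466 by limma). That call ended under 13 of 21 alternatives (adjusted p 0.0311 to 0.227 by limma), among them leaving out any wild type library, S302A_Ctrl replicate 1 or 3 or S302A_DEN replicate 1 (adjusted p = 0.0709 to 0.138 by limma). It was 74.1 ± 14.3 TPM in WT_Ctrl and 103 ± 27.4 in WT_DEN, against 57.0 ± 14.7 in S302A_Ctrl and 126 ± 14.5 in S302A_DEN. Apoc3, an apolipoprotein that slows triglyceride clearance, had the same arrangement as Fads1 and Fads2: 5695, 3911 and 4178 TPM in WT_Ctrl and 9191, 9744 and 9132 TPM in WT_DEN, against 5297, 5099 and 5261 TPM in S302A_Ctrl and 6228, 5622 and 3463 TPM in S302A_DEN. The wild type groups did not overlap (1.05 ± 0.25, adjusted p = 0.208 by limma, 0.0185 to 0.637 over all alternatives), and the S302A groups did. The wild type difference and the average DEN difference (0.61, adjusted p = 0.0246 by limma) passed without S302A_DEN replicate 3. The interaction was -1.12 ± 0.36 (adjusted p = 0.553 by limma), and -0.86 without that library. Tm6sf2, needed for lipid loading of VLDL, was 18.0 ± 6.22 and 31.3 ± 5.93 TPM in wild type and ranged from 14.1 to 16.1 TPM in S302A_Ctrl and from 15.4 to 32.9 in S302A_DEN.

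Of 12 regulators of lipid synthesis, 12 passed the filter and 0 were called in limma, with medians of 0.23 for DEN in wild type and -0.03 in S302A (-0.15 without S302A_DEN replicate 3, again with 0 called). Nr1h3, which encodes the oxysterol receptor LXR alpha, was 49.6, 45.6 and 47.7 TPM in WT_Ctrl and 67.9, 60.1 and 63.7 in WT_DEN, without overlap. It was 41.8, 45.3 and 49.2 TPM in S302A_Ctrl and 57.5, 44.2 and 68.0 in S302A_DEN, with overlap (average 0.35 ± 0.13, adjusted p = 0.178 by limma). Insig2, which holds SREBP precursors in the endoplasmic reticulum, was 129 ± 21.9 and 179 ± 42.4 TPM in wild type and 89.8 ± 19.3 and 146 ± 27.3 in S302A. Insig1, its paralog, was 125 ± 50.3 and 194 ± 38.4 TPM in wild type and 114 ± 23.9 and 149.8 ± 90.2 in S302A.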

How the data were processed

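Per the labels' protocols, total liver RNA was purified on columns, and Illumina TruSeq libraries were sequenced on a HiSeq. Per the submitters' processing notes, the authors used kallisto with mm10 to obtain the deposited TPM values per gene symbol, and the version and annotation are not given in the sources used here. Of 31253 symbols, 17258 stood at 1 in all 12 libraries, and library totals exceeded the nominal TPM total by 16116 to 18237, so the values were read as having a floor at 1. Read depth, and the precision it gives, cannot be had from TPM.

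Values were analysed as log2(TPM + 1), which understates the change of low genes, in R 4.3.3 with limma 3.58.1: 1 linear model of the 4 groups with a mean-variance trend, 12120 genes with TPM above 1 in at least 3 libraries, 8 residual degrees of freedom, 7 contrasts, two-sided tests and Benjamini-Hochberg adjustment over all tested genes at 0.05. The script was tested on simulated data. Groups "do not overlap" when every library of one lies above every library of the other. The genes named are the 10 members and, per pathway list, called genes and the 3 with the smallest p in the average DEN difference. The members and lists were chosen with earlier results of these data known. Gene positions are from GENCODE on GRCm38, promoter windows from RefSeq on GRCm38.p6, and 7 list genes were found under an older symbol. As alternatives, the pseudocount was 0.5 or 0.1, the filter was dropped or raised to 5 TPM, libraries were scaled by median-of-ratios factors or quantile normalized, each contrast was fitted on its own libraries, moderation was robust, the replicate number entered as a block, and each library was left out in turn. Median-of-ratios scaling without S302A_DEN replicate 3 was added after seeing the data.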

Additional observations from a re-analysis of the deposited data

Results flagged for a closer look

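The difference of the DEN effect on Dgat2 between genotypes, -1.16 ± 0.25 on the log2 scale, was picked out because every DEN-treated library was above every untreated one in wild type and below every untreated one in S302A (unadjusted p = 0.000615, adjusted p = 0.273, both by limma). Without S302A_DEN replicate 3 it was -1.20 (adjusted p = 0.0411 by limma), and with median-of-ratios scaling as well it was -1.03 (adjusted p = 0.0702 by limma). With median-of-ratios scaling the levels of Dgat2 were 245 ± 42.4 in WT_DEN and 151 ± 22.5 in WT_Ctrl, and 134 ± 37.7 in S302A_DEN and 197 ± 16.2 in S302A_Ctrl (scaled TPM, SD, n = 3).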

How the results depend on the processing

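Counts below are genes of the 10 that passed the threshold. For DEN in wild type, 0 passed as reported, 3 with the libraries of the contrast alone (Agpat2, Dgat2 and Fads2, with 1.28% of all genes) and 2 (Dgat2 and Fads2, with 1.77%) with median-of-ratios scaling and S302A_DEN replicate 3 left out, and leaving out each library in turn gave 0 to 2. For S302A after DEN, 0 passed as reported, 1 (Fads2, with 1.73% of all genes) with median-of-ratios scaling, and leaving out each library gave 0 to 3, the 3 without S302A_DEN replicate 3 (5.89% of all genes). For the interaction, leaving out each library gave 0 to 1, the 1 being Dgat2 without that library (0.631% of all genes). With that library left out and median-of-ratios scaling together, 0 passed in both, against 3.58% and 0.791% of all genes, so the calls gained without it did not hold under that scaling. For the average DEN difference, 1 (Agpat2) passed as reported and 0 with no filter, median-of-ratios scaling, quantile normalization or the replicate block, and 2 (Agpat2 and Fads2, with 9.85% of all genes) with the scaling and S302A_DEN replicate 3 left out. Leaving out each library gave 0 to 2 there: 0 without any of the 6 wild type libraries, S302A_Ctrl replicate 1 or 3 or S302A_DEN replicate 1, and 2 without S302A_DEN replicate 2 (Agpat2 and Fads2, with 8.59% of all genes) or 3 (Agpat2 and Lpin1, with 5.55%). The cause was not tested. The replicate block gave 0 in the other 6 contrasts as well. Labels share replicate numbers, but the fit as reported did not treat these as pairing the samples. The correlations that follow do not settle whether they do. With the replicate block, Agpat2 in the average DEN difference had adjusted p = 0.0809 by limma. Deviations of same-numbered libraries correlated at -0.187 to 0.282, over 0.1 in 5 of 18 pairs, and those of other libraries at -0.230 to 0.255, over 0.1 in 5 of 36. Of 12 libraries, 7 correlated best with one of their own number, where a match without regard to number gives 4. Of 1043 single-gene values recomputed under an alternative, 938 kept their direction and side of the threshold, 39 lost the call, 32 gained one and 34 changed sign, all of genes that did not pass the test. For DEN in S302A, median-of-ratios scaling gave -0.10 for Fads2, -0.22 for Fads1, -0.25 for Gpam and -0.21 for Dgat1, and quantile normalization gave -0.014, -0.11, -0.24 and -0.22. That scaling with S302A_DEN replicate 3 left out gave -0.040 for Fads1, -0.36 for Gpam, -0.23 for Dgat1, -0.63 for Mogat1 and 0.35 for Elovl5 there, and 0.22 for Lpin1 and -0.92 for Mogat1 in S302A after DEN. A pseudocount of 0.1 gave -0.024 for Mogat1 in S302A after DEN. For DEN in wild type, Dgat1 was -0.034 with median-of-ratios scaling, -0.041 with quantile normalization and -0.036 with the scaling and that library left out. Leaving out each library in turn gave, for DEN in S302A, -0.34 to 0.53 for Gpam, -0.22 to 0.34 for Dgat1, -0.61 to 1.36 for Mogat1, -0.031 to 0.27 for Fads1 and -0.35 to 0.36 for Elovl5. It gave -0.85 to 0.042 for Mogat1 with DEN in wild type, and -0.33 to 0.22 for Dgat1 and -1.12 to 0.85 for Mogat1 in S302A after DEN. Over all genes, median-of-ratios scaling moved the calls from 51 higher and 24 lower to 306 and 345 for DEN in S302A, and from 127 and 35 to 322 and 386 for the average DEN difference. Without depth, counting error cannot be separated from the spread between libraries.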

Other observations

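Some genes of the same pathways were seen in S302A_DEN replicate 3 and little elsewhere; they were chosen after their values were seen. Mogat2, the intestinal monoacylglycerol acyltransferase, was 13.9 TPM in it and 1.00 in the other 11 libraries. Elovl7, an elongase of saturated chains, was 31.5 TPM in it and 1.00 in the other 11. Scd2, a stearoyl-CoA desaturase that is low in adult liver, was 105 TPM in it and 1.00 to 6.38 in the others. Gpat3, a glycerol-phosphate acyltransferase of the endoplasmic reticulum, was 16.5 TPM in it and 2.20 and 2.65 TPM in its group's replicates 1 and 2, with 6.52 ± 0.864 TPM in WT_DEN (SD, n = 3). With Mogat1 at 29.7 TPM in the same library, these high values are those of 1 library.

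Scd1, the main hepatic stearoyl-CoA desaturase, also named after its values were seen, varied widely within groups. It was 2341, 296 and 443 TPM in WT_Ctrl, 3436, 1325 and 1648 in WT_DEN, 653, 1384 and 489.6 in S302A_Ctrl and 1511, 306 and 551 in S302A_DEN. The groups overlapped in both DEN comparisons, and replicate 1 was the highest of its group in WT_Ctrl and WT_DEN, as for Gpam, Agpat2, Mogat1 and Elovl5. Its log2 difference with DEN was 1.53 ± 0.75 in wild type (adjusted p = 0.622 by limma) and -0.26 ± 0.75 in S302A (adjusted p = 0.852 by limma).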
